A study of Mus musculus with 28 samples.

Results

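The comparison described here set embryonic fibroblasts that lack p53 against WT fibroblasts, with untreated and H2O2-treated cells pooled. It used 16 of the 28 arrays of the series, namely all 8 arrays labelled p53KO and the 8 arrays of WT cells that were untreated or exposed to H2O2. Mouse embryonic fibroblasts (MEFs) are primary connective tissue cells, here taken from embryos of 13.5 days and used at passage 2. Each genotype is represented by 4 replicate numbers, with one array of untreated cells and one of cells kept for 4 h in 400 μM H2O2 for every number. The 8 arrays of p66−/− cells in the same states, which lack the largest protein made from the Shc1 gene, served as a second reference. The labels name the strain of all cells C57Bl/6, whereas the methods of the study name sv129, and the p53 allele is described no further. The study speaks of 4 independent preparations, so the array of untreated cells and the array of H2O2-treated cells with one number may come from one preparation. These 2 arrays were therefore averaged, and 4 WT averages were compared with 4 p53−/− averages.

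The p53 protein is a transcription factor that is held at a low level by the ubiquitin ligase Mdm2 and accumulates when DNA is damaged or cells are under stress. It binds a repeated sequence motif in DNA and raises the transcription of genes that stop the cell cycle, start cell death, repair DNA or switch p53 itself off again. Through the Cdk inhibitor p21, the product of Cdkn1a, it also acts on the Rb-family DREAM complex. That complex represses cell cycle genes through CHR elements of their promoters. The study describes CCAAT boxes upstream in several such promoters, where the factor NF-Y activates transcription. Fibroblasts in culture carry some p53 activity even without added stress, and MEFs without p53 keep dividing where WT cells enter senescence.

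All values are on the log2 scale that the authors' RMA normalization returned, so that a difference of −1 is a level cut to 50% of WT and each value belongs to a probe set, a group of probes for one transcript. A gene is said to fall or rise, or to be called, only where the Benjamini-Hochberg adjusted p of limma over all 45037 probe sets was under 0.05. A gene with several probe sets stands in the lists below at the one with the highest mean. Array medians lay between 4.35 and 4.46 and the median difference over all probe sets was 0.002. The deleted gene could not be used to check the genotypes, since no probe set carried the symbol Trp53 alone here. All 9 fibroblast markers lay above the array median in both genotypes, and Vim stood at 13.01 in WT and 12.93 in p53−/− cells. That bar is low, since 7 of 10 blood and macrophage markers also passed it in both genotypes. Of the 9 fibroblast markers 7 had lower means in p53−/− cells, with a median difference of −0.10 and a lowest of −1.15, and none was called.

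The H2O2 response of the p53−/− arrays ran opposite to that of WT as labelled. Of 663 probe sets that differed by at least 1 on the log2 scale between H2O2-treated and untreated WT arrays, 641 (96.7%) had the opposite sign on the p53−/− arrays as labelled, against 27 (4.07%) on the p66−/− arrays. Atf3, a transcription factor of the acute stress response, read 8.30 to 9.13 on the H2O2-labelled WT arrays and 8.54 to 9.39 on the untreated-labelled p53−/− arrays. Whether the labels or the cells differed was not tested. An average of both arrays of a number is the same whichever label is right, and every difference below rests on such averages unless it says otherwise.

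A small set of genes was lower in the cells without p53, and genes of the p53 target lists were among its largest falls. Of the 45037 probe sets 42 fell (0.0933%) and 2 rose (0.00444%). The falls with a single gene symbol belonged to 27 genes, 13 of which stood in the p53 target lists. These lists hold 80 of the 17097 measured genes. Their members were chosen with earlier results of these data known, so the 13 are no separate support. The 15 largest among those whose 8 p53−/− arrays all lay below the 8 WT arrays ran from Eda2r at −4.43 ± 0.26 (SE of the fit) to Dennd2c at −1.31 ± 0.10. By the probe set with the highest mean of each gene, 25 of 17097 genes fell (0.146%) and none rose in limma, while 663 genes (3.88%) were lower and 772 (4.52%) higher at an unadjusted p under 0.05. All 8 p53−/− arrays lay below all WT arrays for 45 genes (0.263%) and above them for 23 (0.135%). At the thresholds of the study, an unadjusted p under 0.05 and a 1.5-fold change, 237 probe sets were lower and 155 higher. Leaving out 1 of the 8 averages left 21 to 38 probe sets, with the counts reduced more than 1.5-fold without WT replicate 4 (23) or without p53−/− replicate 1 (27), 3 (21) or 4 (24).

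Some promoters of the genes that fell hold a match to the motif that p53 binds, and these are shown because they set a possible site beside a measured fall. The search covered RefSeq promoters of GRCm38.p6, 250 bases before to 50 after each start, which were found for 25 of the 27 genes. The consensus p53 full site, a run of 20 bases made of a repeated motif without a spacer, was allowed 2 mismatches outside the C and G of each core, a choice made after the values were seen. It was found for 4 of these 25 genes (16%) and for 60 of 13605 measured genes (0.441%). Each sequence below runs 5′ to 3′ on the strand of its gene, with the site in capitals.

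Cdkn1a: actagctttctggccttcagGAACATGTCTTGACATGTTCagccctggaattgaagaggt
Ccng1: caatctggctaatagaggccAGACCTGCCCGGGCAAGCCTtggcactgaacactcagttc
Stox2: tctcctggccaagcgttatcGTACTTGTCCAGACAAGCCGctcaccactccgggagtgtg
Gtse1: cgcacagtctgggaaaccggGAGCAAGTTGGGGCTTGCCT

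The Cdkn1a stretch is chr17:29090908-29090967 on the plus strand, and its site, with 1 mismatch, ends 32 bases before one of the 2 starts given for the gene. The Ccng1 stretch is chr11:40755442-40755501 on the minus strand, also with 1 mismatch, 176 bases before the start. The Stox2 stretch is chr8:47352463-47352522 on the minus strand, with 2 mismatches, 135 bases before the start. The Gtse1 stretch is chr15:85859925-85859964 on the plus strand, and its site begins 1 base before the start and has 1 mismatch. A different form that fixes only the cores, CATGNNNNNNCATG on either strand, was present for 1 of the 25 genes (4%), Cdkn1a, and for 0.485% of all measured genes. Over the 60 measured genes with a full site the median difference was −0.05 and 38.3% lay above 0, so that most promoters with these letters belonged to genes with small differences. The match is one of letters only, and binding was not measured here.

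Among the targets that stop the cell cycle, Cdkn1a, Ccng1, Btg2 and Gtse1 fell. These are 4 of 14 measured genes of this role, where 0.146% of all genes fell, 9 were lower at an unadjusted p under 0.05, and the median difference was −0.73 against 0.00 over all genes. Cdkn1a, which encodes the Cdk inhibitor p21, read 10.2 at the lowest, 11.1 at the median and 12.1 at the highest WT array, and 6.63, 7.19 and 8.58 on the p53−/− arrays. Not one p53−/− array came within 1 log2 unit of the lowest WT array, and the means were 11.05 ± 0.17 and 7.31 ± 0.22 (SD, n = 4 averages). The difference of −3.74 ± 0.13 (SE) is a 13.3-fold lower level, at an adjusted p of 2.86e-05 in limma, and it lay between −3.91 and −3.55 within the 4 replicate numbers.

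Ccng1, cyclin G1, which recruits a phosphatase that acts on Mdm2, read from 10.6 over 11.2 to 11.9 on the WT arrays and from 7.63 over 8.44 to 8.92 on the p53−/− arrays. The groups were far apart, with a difference of −2.81 ± 0.28 (limma adjusted p = 0.0145), and its 3 probe sets all fell, by 2.81 to 3.37. Btg2, an antiproliferative gene that is also among the quickest p53 targets, had WT values of 7.60, 8.60 and 9.21 at the lowest, median and highest array, and p53−/− values of 6.02, 6.55 and 7.01. Again no array of one group reached the other, and the difference of −1.99 ± 0.08 was the one with the second lowest adjusted p among named genes (6.4e-05 in limma).

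Gtse1, a microtubule-associated protein of G2 phase that can move p53 out of the nucleus, fell by 1.34 on the log2 scale, although its arrays overlapped slightly, with the lowest WT array at 6.97 and the highest p53−/− array at 7.05. In limma with the number as a block its adjusted p was 0.0682, so that this call depends on the fit. Ptprv, Ckap2, Rprm and Cdc42bpg differed by −1.03, −0.85, −0.77 and −0.69 without passing the test, although Cdc42bpg had an adjusted p of 0.0373 in the blocked fit. Gadd45a, a stress gene that p53 shares with other regulators, read 6.15 to 10.2 on WT and 6.20 to 9.84 on p53−/− arrays. Its range was as wide in the cells without p53 as in WT cells, and the difference was −0.20 ± 0.18 (limma adjusted p = 0.88). Plk2, Plk3 and Sfn likewise lay within 0.3 of 0.

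**Figure D1:**
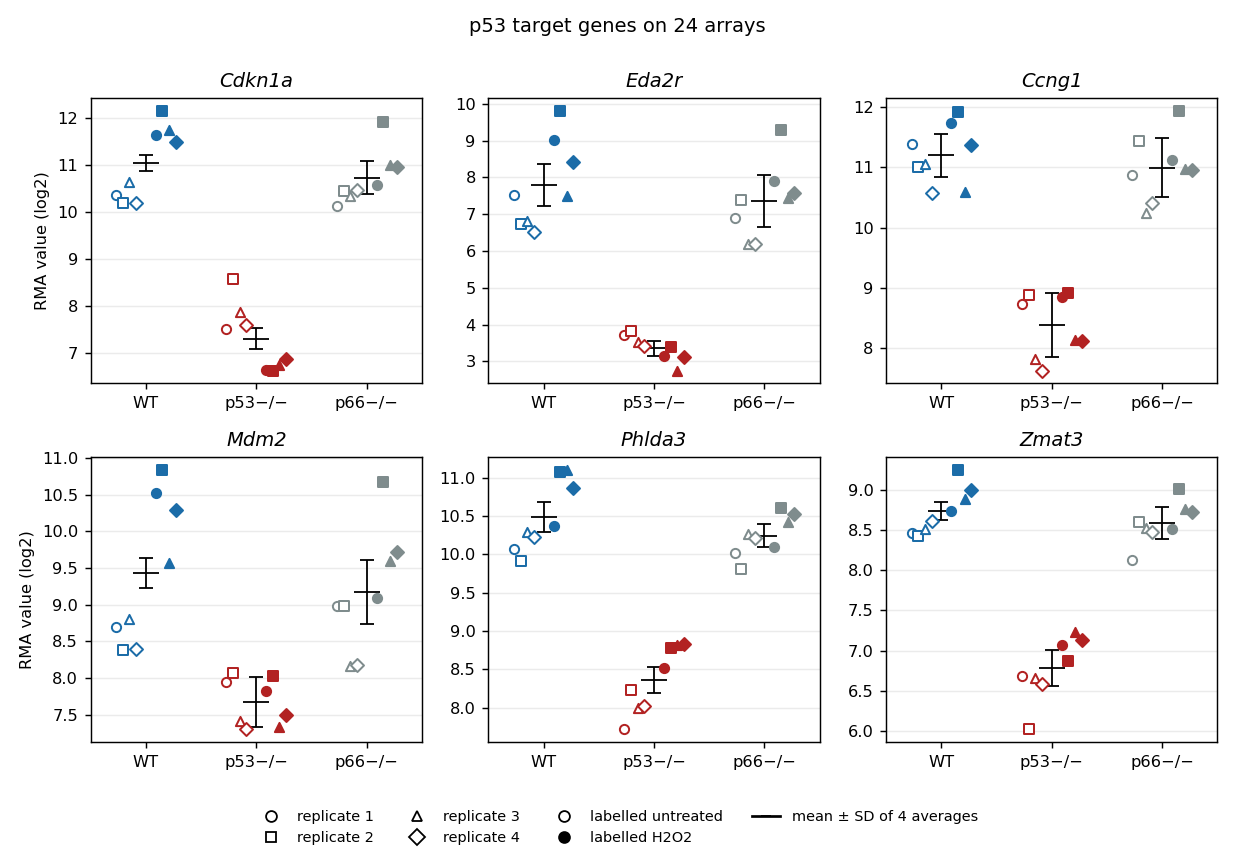
RMA values (log2, y axis) of 6 p53 target genes on the 8 WT, 8 p53−/− and 8 p66−/− arrays. Marker shape gives the replicate number, open and filled markers the label untreated or H2O2, and black bars the mean ± SD of the 4 averages per genotype. In each panel every p53−/− array lies below every WT array and every p66−/− array, and for Cdkn1a the p53−/− arrays reach at most 8.58 while the WT arrays start at 10.2.

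Among the targets that promote cell death, Eda2r and Zmat3 fell. Of 18 measured genes 14 were lower at an unadjusted p under 0.05 (3.88% of all genes were) and 17 lay below 0, with a median of −0.82, the lowest of the 5 roles. Eda2r, a receptor of the TNF receptor family, read 6.52, 7.50 and 9.80 at the lowest, median and highest WT array and 2.75, 3.40 and 3.82 on the p53−/− arrays. All p53−/− arrays stood below the lowest array median, 4.35, and near the bottom of the scale, where the lowest value of all was 2.00. The RMA values differed by −4.43 ± 0.26 (limma adjusted p = 0.000726), but whether the p53−/− arrays measured the gene above background was not tested, so no fold is given and its place among the falls is one of RMA values only. Zmat3, a zinc finger protein that binds RNA, fell by 1.96 from 8.74 ± 0.11 to 6.78 ± 0.23 (SD, n = 4), with its arrays at 8.43 to 9.25 in WT and 6.02 to 7.23 in p53−/− cells.

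Trp53inp1, a cofactor of p53 in cell death and autophagy, differed by −3.89 ± 0.53 but did not pass the test (limma adjusted p = 0.063). Its WT arrays spread from 6.48 to 11.5 and its p53−/− arrays from 3.86 to 6.74, so that the groups overlapped at their edges. In the blocked fit its adjusted p was 0.00132. Perp, Fas, Dapk1, Apaf1, Aen and Tnfrsf10b differed by −0.83 to −1.13 and passed in neither of these fits. Bbc3, which encodes Puma, differed by −0.67 ± 0.17 and Pmaip1, which encodes Noxa, by −0.82 ± 0.59, with adjusted p-values of 0.46 and 0.84 in limma. For Pmaip1 the difference was 0.48 in replicates 1 and 2 and −2.12 in replicates 3 and 4.

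Of 16 measured genes of feedback and signalling 3 fell, namely Mdm2, by which p53 limits itself, Phlda3 and Rap2b. In this list 9 genes were lower at an unadjusted p under 0.05, and the median was −0.47. Of all genes 0.146% fell and 3.88% were lower at an unadjusted p under 0.05. Mdm2 read 8.38, 9.18 and 10.8 at the lowest, median and highest WT array and 7.30, 7.66 and 8.07 on the p53−/− arrays. The highest p53−/− array stood just below the lowest WT array, with a difference of −1.76 ± 0.18 (limma adjusted p = 0.0151) that was −0.88 between the untreated-labelled arrays and −2.63 between the H2O2-labelled ones. Phlda3, an inhibitor of Akt, fell by 2.13 with arrays at 9.92 to 11.1 in WT and 7.72 to 8.82 in p53−/− cells. Rap2b, a small GTPase, fell by 1.02 at 1 of its 4 probe sets, whereas its other probe sets came as near to 0 as −0.11. Ppm1d, the phosphatase Wip1, and Mdm4 differed by −0.59 and −0.39 without passing the test. Wrap53, which lies next to Trp53 on the opposite strand, differed by 0.26 ± 0.22.

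DNA repair and nucleotide supply was the role in which the list as a whole did not go down. None of its 12 measured genes fell in limma, 3 were lower and 1 higher at an unadjusted p under 0.05, and the median was 0.10. Polk, a polymerase that copies past damaged bases, differed by −1.46 ± 0.26 at its brighter probe set (limma adjusted p = 0.19) although all 8 p53−/− arrays, 5.46 to 6.71, lay below the WT arrays, 6.78 to 8.61. Its dimmer probe set fell by 0.80, and in the blocked fit the brighter one had an adjusted p of 0.00326. Mgmt, which removes alkyl groups from guanine, differed by −0.76 ± 0.11 with all arrays apart (limma adjusted p = 0.07, and 0.0373 with the block), and Ercc5, a nuclease of excision repair, by −1.08 ± 0.20. Ddb2, Xpc and Rrm2b, classical members of this list, lay at −0.05, 0.04 and 0.02. Pold1 and Lig1, which also serve replication, stood at 0.52 and 0.47.

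The targets of metabolism, mTOR and redox control went lower in part. Of 20 measured genes 3 fell, against 0.146% of all genes, and the median was −0.61. Ephx1, the microsomal epoxide hydrolase, had WT arrays of 8.11, 8.82 and 9.46 and p53−/− arrays of 5.80, 6.44 and 6.56 at the lowest, median and highest, and fell by 2.47. Ak1, adenylate kinase 1, fell by 2.10 with arrays at 9.10 to 10.1 in WT and 7.18 to 7.98 in p53−/− cells, while its other probe set was at −0.48. Dcxr, a reductase of dicarbonyls and xylulose, fell by 1.64. Ddit4l, an inhibitor of mTOR signalling, differed by −1.98 ± 0.27 (limma adjusted p = 0.066, and 0.0373 with the block), Sulf2, a sulfatase of the cell surface, by −1.81 ± 0.32 and Dglucy by −1.45 ± 0.30 (limma adjusted p = 0.29, and 0.0373 with the block). Sesn1, Tigar, Gpx1, Aldh4a1 and Pltp lay between −0.11 and 0.12.

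**Figure D2:**
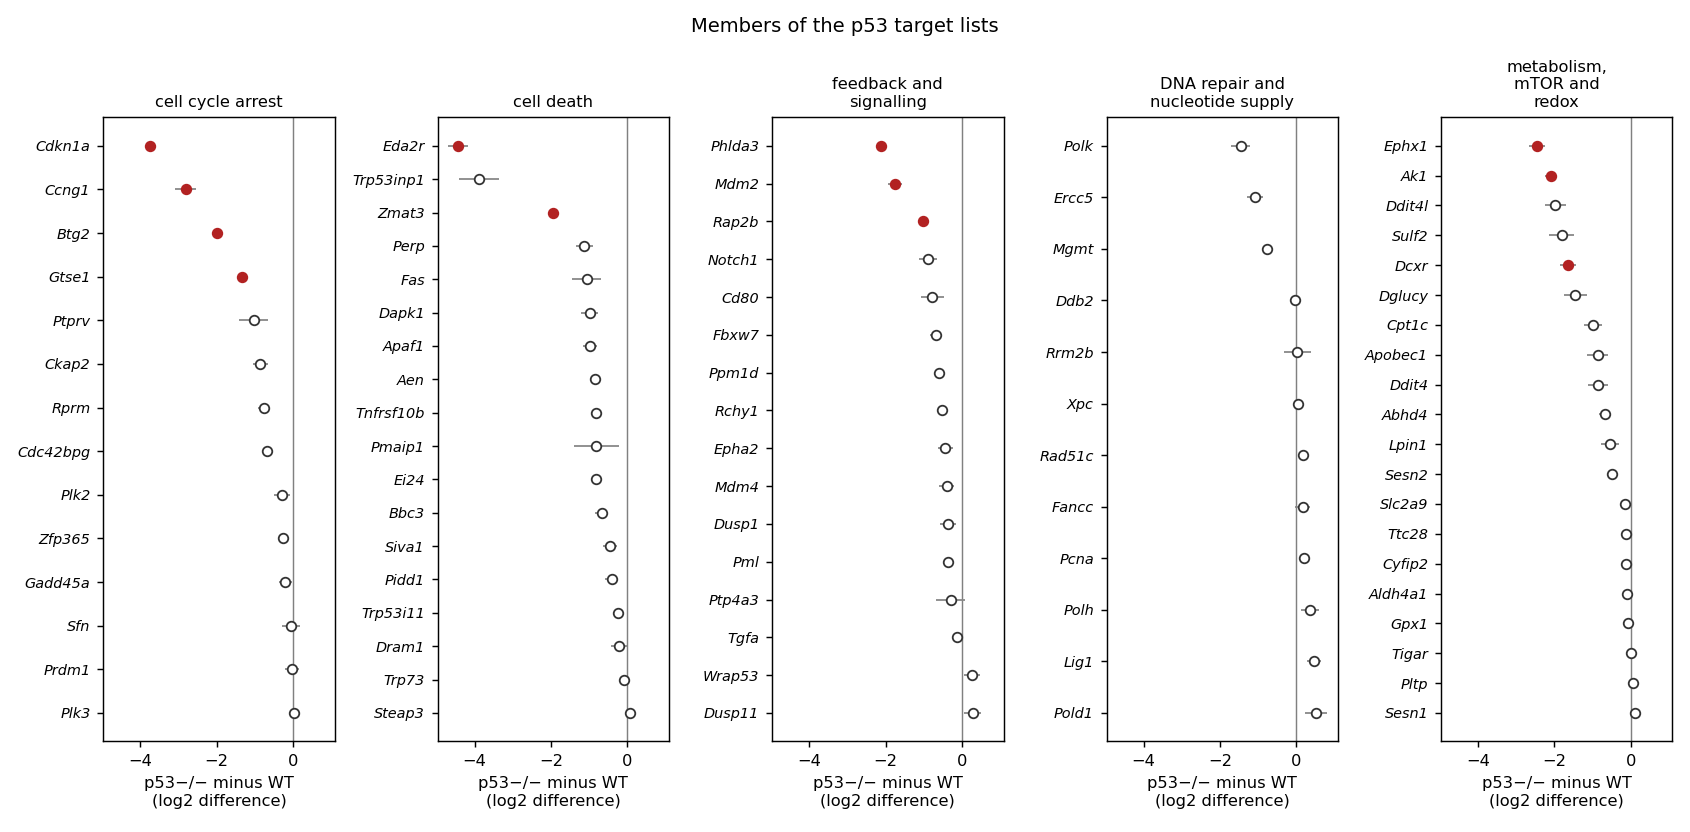
Difference p53−/− minus WT (log2, x axis) of each measured gene of the 5 p53 target lists, ordered by size, with the SE of the fit as a horizontal line. Filled red points are genes with an adjusted p under 0.05, 12 of 80 in all, and 6 of the 12 genes of the repair list lie within 0.3 of 0 while 3 lie below −0.7.

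Over the 5 roles together 12 of 80 measured targets fell and none rose in limma, 65 lay below 0, and the median was −0.57. Of all genes 0.146% fell and 50.6% lay below 0. The listed targets were chosen with earlier results of these data known. In all, 21 targets were at least 1 lower on the log2 scale, of which 12 fell, while 28 lay within 0.3 of 0. The blocked fit called 19 of the 80 in place of 12, without Gtse1 and with Trp53inp1, Ei24, Notch1, Polk, Mgmt, Ddit4l, Dglucy and Cdc42bpg. Leaving out 1 average gave 7 to 11, with 7 without WT replicate 4 and without p53−/− replicate 3 or 4. The median of the targets was −0.55 in replicates 1 and 2 and −0.55 in replicates 3 and 4. It moved with the treatment labels, at −0.28 between untreated-labelled and −0.79 between H2O2-labelled arrays, and with the p53−/− labels exchanged at −0.25 against untreated and −0.81 against H2O2-treated WT arrays.

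Of the 15 named falls, 5 were not among the listed p53 targets. Psrc1, which encodes a protein of spindle microtubules, read 8.54, 9.01 and 9.72 at the lowest, median and highest WT array and 4.94, 6.09 and 6.44 on the p53−/− arrays. The difference of −3.26 ± 0.19 was the third largest of these 15, with 2 of its 3 probe sets passing and the other at −0.07. Slc19a2, the high-affinity thiamine transporter, fell by 2.31, with WT arrays at 8.30 to 10.4 and p53−/− arrays at 6.48 to 7.16. Stox2 fell by 1.86 with arrays at 8.17 to 9.87 and 6.10 to 7.80, and Grb14, an adaptor that binds the insulin receptor, by 1.75 with arrays at 8.20 to 9.11 and 6.41 to 7.46. Dennd2c, a protein with a DENN domain, had low values on all arrays, 4.45 to 6.53 against 3.72 to 4.19, with the latter below every array median.

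The 10 remaining genes, named here after their values were seen, fell by 0.60 to 1.78. Def6, Exoc4 and Gsn, of which Gsn encodes the actin-severing protein gelsolin, had all arrays apart, as did the dimmer probe set of Polk. 1700007K13Rik, Trim11, A930007A09Rik, Bloc1s2, Pitpnc1 and Blcap overlapped. On the p53−/− arrays 1700007K13Rik read 3.04 to 3.49 and A930007A09Rik 3.21 to 3.75, below the lowest array median of 4.35. Whether either was above background there was not tested. 1700007K13Rik differed by −0.40 between untreated-labelled and −3.15 between H2O2-labelled arrays. Bloc1s2, Pitpnc1 and Gsn did not pass in the blocked fit, with adjusted p-values of 0.0796, 0.106 and 0.0939. Pitpnc1 passed at 1 of 9 probe sets and the other probe sets reached 0.01, and Gsn at 1 of 5, with the others as near to 0 as −0.01. Both probe sets that rose, by 1.48 ± 0.13 and 1.24 ± 0.13, carry no single gene symbol here, and 5 further unnamed probe sets fell. The one that rose by 1.48 read 3.18 to 3.86 on the WT arrays, also below every array median.

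The 27 genes were compared between the array sets and between readings of the treatment labels. All of them were lower within each of the 4 replicate numbers. They were called from these same averages, so the shared sign is no separate support. Spike-in lys transcripts read 5.02 to 6.06 on the arrays of replicates 1 and 2 and 3.24 to 4.04 on those of replicates 3 and 4. On these values alone they were taken as 2 array sets, each with both genotypes. The sample labels name no such sets. With the array set as a block 136 probe sets passed, 106 of them lower. With 2 averages a genotype, replicates 1 and 2 alone gave no probe set that passed in limma (6496 at an unadjusted p under 0.05), and replicates 3 and 4 alone gave 88 (2712). Of the 27 genes 25 were below 0 in each of the 4 pairings of untreated-labelled or H2O2-labelled p53−/− arrays with untreated or H2O2-treated WT arrays. For the 15 named falls this was fixed beforehand, since they were chosen with all p53−/− arrays below all WT arrays. Eda2r, for example, differed by −3.28 and −5.59 between arrays of like labels and by −3.80 and −5.07 with the p53−/− labels exchanged. Pitpnc1 and Blcap were the exceptions among the 27 genes, at 0.20 and 0.31 between the untreated-labelled arrays.

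The p66−/− arrays gave the same genes a second reference that shares no WT array, though it shares the p53−/− arrays. Against p66−/− cells 29 probe sets were lower (0.0644%) and 3 higher (0.00666%) in p53−/− cells. Of the 15 named falls 11 passed in this comparison, and for 14 all p53−/− arrays lay below all p66−/− arrays, with Dennd2c as the exception. None of the other 12 genes that fell against WT passed against p66−/− cells in limma, all 12 had a lower mean there, and Exoc4, Trim11 and Polk had all arrays apart. Cdkn1a differed by −3.42 and Eda2r by −4.00, with p66−/− arrays at 10.1 to 11.9 and 6.18 to 9.29. Mdm2, Stox2 and Dcxr differed by −1.50, −1.74 and −1.26 and did not pass, at adjusted p-values of 0.149, 0.129 and 0.189 in limma. H2az2, a histone variant, and Per1, a clock gene, were higher than in p66−/− cells by 0.75 and 0.50, and stood at 0.51 and 0.41 against WT without passing. The third, 1 of the unnamed probe sets that rose against WT, was higher by 1.48.

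**Figure D3:**
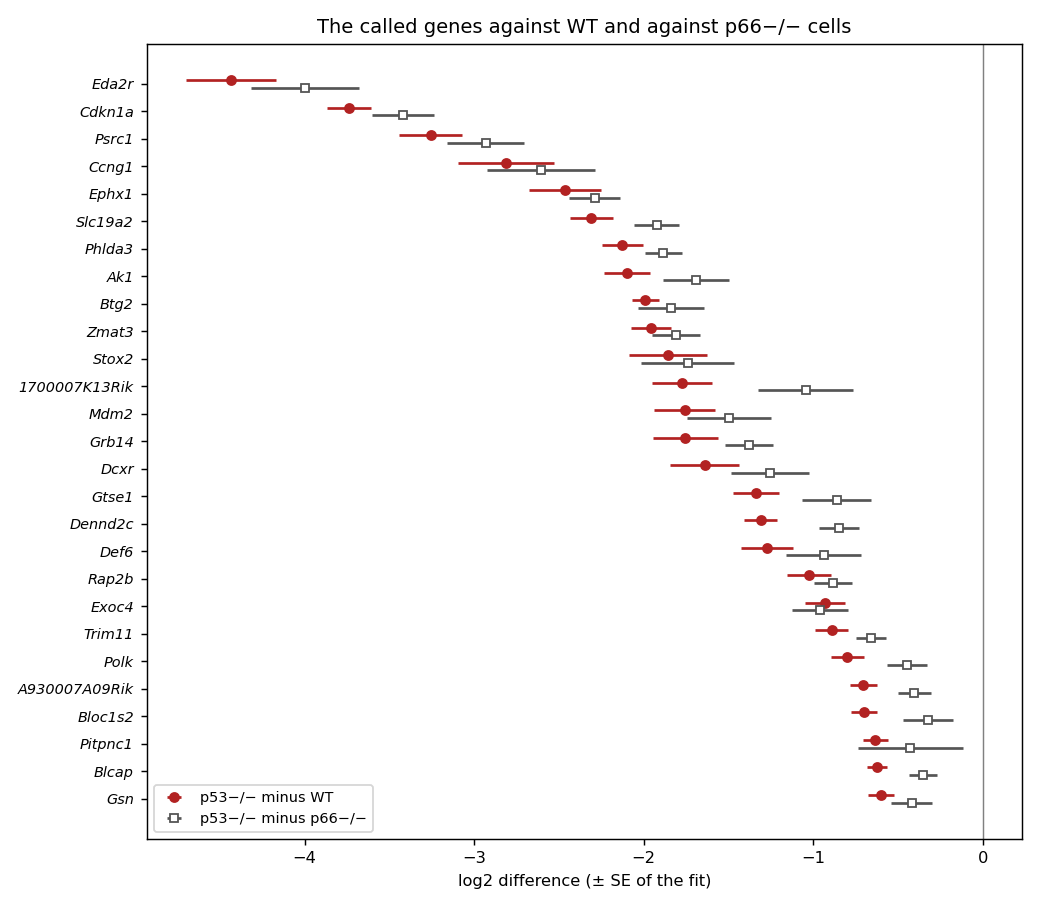
Log2 differences with the SE of the fit for the 27 genes called lower in p53−/− than in WT cells (red circles), beside the difference of the same p53−/− arrays from the p66−/− arrays (open squares). Every point lies below 0, from −4.43 for Eda2r to −0.60 for Gsn against WT.

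The listed genes of G2 phase and mitosis had higher means in p53−/− cells, although none of them passed the test alone. All 49 measured genes of this list lay above 0, against 49.4% of all genes. Its members were chosen with earlier results of these data known. Gtse1 and Psrc1, described above with G2 phase and spindle microtubules, were not on it and differed by −1.34 and −3.26. The median was 0.51, which compares with 0.00 over all genes, and the range ran from 0.14 for Bub3 to 1.08 for Espl1. None rose in limma after adjustment, 30 were higher at an unadjusted p under 0.05 (4.52% of all genes were), and 10 passed when the 16 arrays were fitted singly. Cdc25c, the phosphatase that activates Cdk1, read 5.86, 6.04 and 6.28 at the lowest, median and highest WT array and 6.37, 6.67 and 6.79 on the p53−/− arrays. No arrays overlapped for it, nor for Prc1, Top2a and Stmn1, at differences of 0.58, 0.54, 0.55 and 0.34. Espl1, which encodes the separase that cuts cohesin, was at 5.41 to 7.84 in WT and 7.28 to 8.40 in p53−/− cells, a difference of 1.08 ± 0.19 (limma adjusted p = 0.19). Kif2c, Cdc25b and Bub1b had the lowest p-values of the list, at differences of 0.69, 0.61 and 0.49 and adjusted p-values of 0.10, 0.10 and 0.14. Cdk1 itself differed by 0.47 ± 0.20, and Mki67 and Hmmr by 0.52 ± 0.43 and 0.20 ± 0.29.

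Most genes of G1-S and replication had higher means as well. Of 44 measured genes 42 lay above 0, none rose in limma, 17 were higher at an unadjusted p under 0.05, and the median was 0.43. Of all genes 49.4% lay above 0 and 4.52% were higher at an unadjusted p under 0.05. Brca1, Exo1 and Mybl2 stood highest at 0.85, 0.80 and 0.80, and Mybl2, a transcription factor that joins the Muv B complex in proliferating cells, was the one gene of the list with all arrays apart, at 4.90 to 6.61 in WT and 6.67 to 7.05 in p53−/− cells. Ccne2 and Rrm2 were the exceptions at −0.38 and −0.08. The array sets differed in size for both lists. The G2 and mitosis median was 0.67 in replicates 1 and 2 and 0.36 in replicates 3 and 4, and the G1-S median was 0.66 and 0.15. The G2 and mitosis list also moved with the treatment labels, at medians of 0.15 between untreated-labelled and 0.88 between H2O2-labelled arrays, and of 0.44 and 0.57 with the p53−/− labels exchanged. A larger share of dividing cells and more mRNA of these genes per cell cannot be told apart in bulk RNA.

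The promoters of the G2 and mitosis genes were rich in the CCAAT box and in TTTGAA, the CHR element, counted on either strand. Of 39 genes with a promoter 79.5% held CCAAT and 71.8% TTTGAA, against 42.3% and 15.6% of all measured genes, and against 70.3% and 21.6% of the G1-S genes and 56% and 8% of the genes that fell. The following 3 have the lowest p-values among those that hold CCAAT upstream of TTTGAA, with both motifs in capitals in either orientation.

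Espl1: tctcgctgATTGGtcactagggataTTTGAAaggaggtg
Prc1: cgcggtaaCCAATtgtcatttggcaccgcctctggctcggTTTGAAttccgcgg
Top2a: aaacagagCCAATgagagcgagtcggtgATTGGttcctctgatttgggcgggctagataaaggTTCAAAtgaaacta

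The stretches are chr15:102296241-102296279 and chr7:80294406-80294459 on the plus strand and chr11:99024199-99024275 on the minus strand of GRCm38.p6. The CHR begins 27, 30 and 23 bases before the start, and the nearest CCAAT begins 17, 32 and 35 bases further upstream. Holding both motifs did not go with a difference over the genome. The 1003 measured genes with CCAAT and TTTGAA had a median difference of 0.006 and 51.7% above 0, against 0.000 and 49.8% for the 6729 genes with neither.

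**Figure D4:**
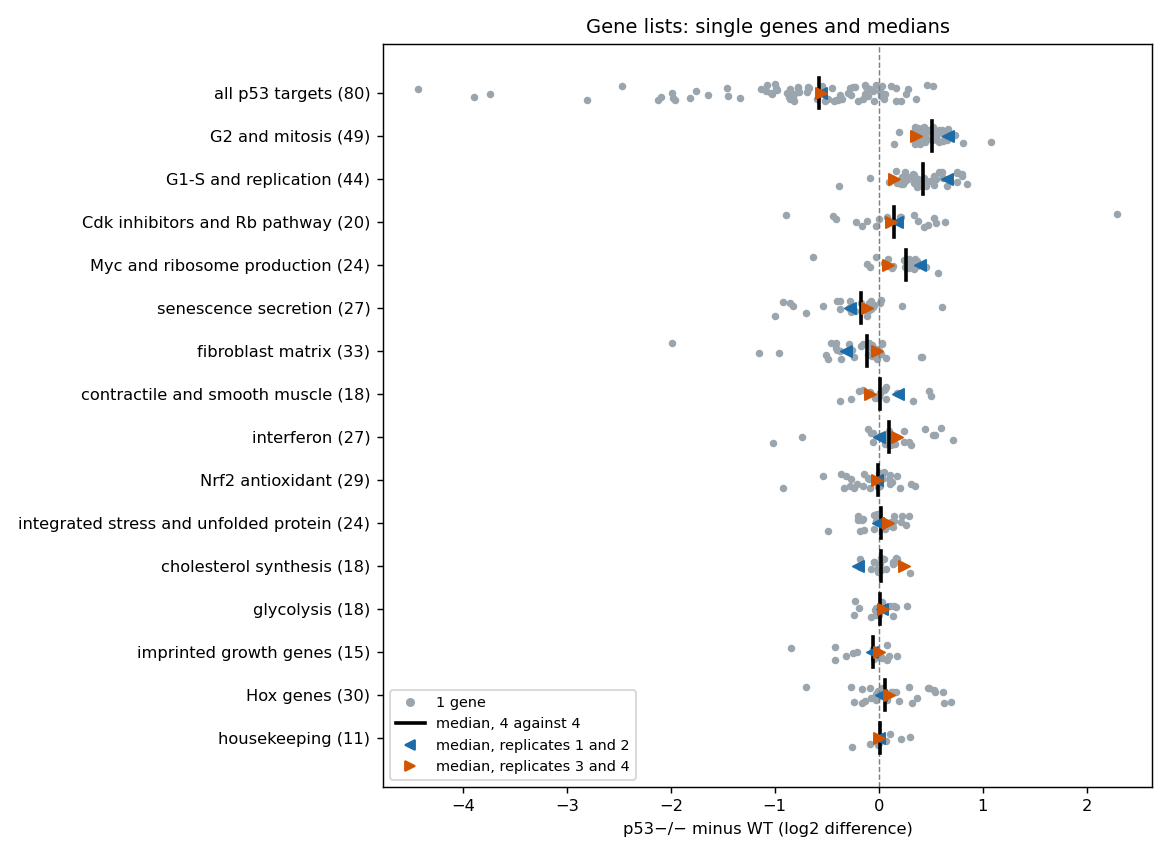
Difference p53−/− minus WT (log2, x axis) of the genes of 16 lists, with the number of measured genes in brackets. Grey points are genes, black bars the medians and triangles the medians within replicates 1 and 2 or 3 and 4. The p53 targets have a median of −0.57, the G2 and mitosis genes of 0.51 and housekeeping genes of 0.01.

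The other lists held no gene that fell or rose in limma, with 0.146% of all genes falling. Of 20 Cdk inhibitors and Rb pathway genes 5 were higher and 1 lower at an unadjusted p under 0.05, and the list's median was 0.15. For Myc and ribosome production the median was 0.26, with 20 of 24 genes above 0 and Myc itself at 0.57 ± 0.10 (limma adjusted p = 0.18). Senescence secretion had a median of −0.17 with 23 of 27 genes below 0, and fibroblast matrix −0.11 with 26 of 33 below 0. In the matrix list Col18a1 differed by −0.96 with all arrays apart and did not pass, while Col1a1 and Sparc stood at −0.10 and −0.07. Medians lay between −0.05 and 0.10 for the contractile, interferon, Nrf2 antioxidant, integrated stress, cholesterol, glycolysis, imprinted and Hox lists. Actb, Gapdh and Rplp0 differed by 0.04, 0.11 and −0.01.

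Cdkn2a, singled out after its values were seen, was the gene with the largest positive difference. It encodes p16 and the p19Arf protein that restrains Mdm2, and the probe set was not assigned to either transcript. The WT arrays read 4.06, 5.51 and 7.38 at the lowest, median and highest and the p53−/− arrays 6.12, 7.72 and 9.98. The groups overlapped, and the replicate numbers differed in level, with replicate 2 highest in all 3 genotypes. Within each number the p53−/− average was higher by 1.90 to 2.67. The difference of 2.30 ± 0.85 had an adjusted p of 0.66 in limma, and in the blocked fit the SE was 0.16 and the adjusted p 0.0104. Whether the numbers pair the genotypes was not shown, so the gene is not counted as called. Cdkn2b and Cdkn2c differed by −0.41 and 0.43 without passing.

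**Figure D5:**
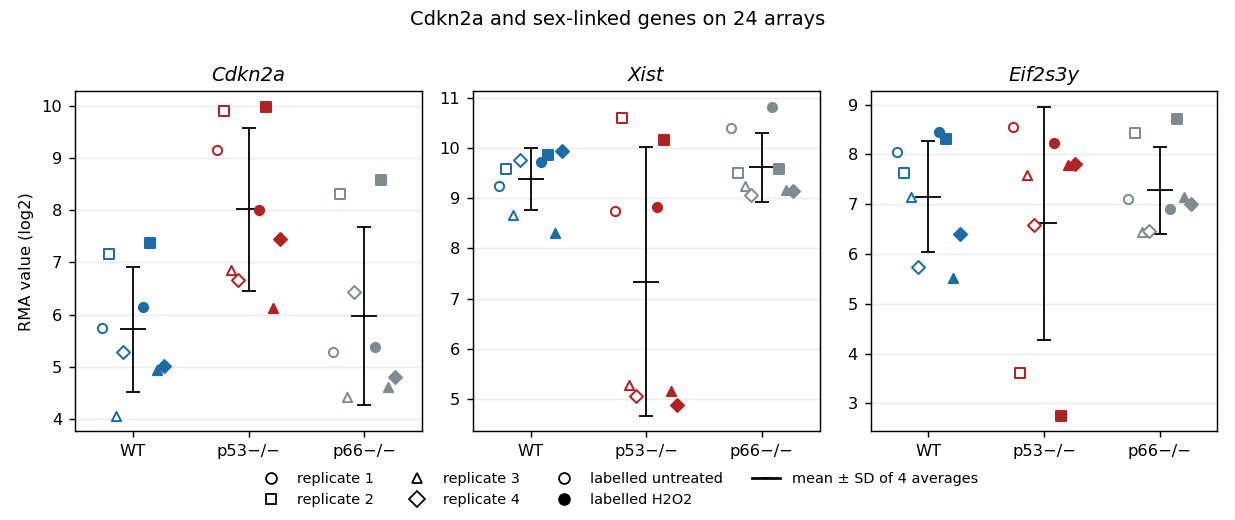
RMA values (log2, y axis) of Cdkn2a, Xist and Eif2s3y on the same 24 arrays, with markers as for the p53 target genes. Within each replicate number Cdkn2a is higher on the p53−/− than on the WT arrays, Xist is at 5.28 or less on the p53−/− arrays of replicates 3 and 4, and Eif2s3y is at 3.62 or less on those of replicate 2.

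Sex-linked genes differed between replicate numbers and genotypes. Xist, the RNA of the inactive X chromosome, read 8.31 to 9.95 on all WT arrays, 8.75 to 10.6 on the p53−/− arrays of replicates 1 and 2, and 4.88 to 5.28 on those of replicates 3 and 4. Eif2s3y, a gene of the Y chromosome, was at 5.52 to 8.45 on the WT arrays and at 2.75 and 3.62 on the p53−/− arrays of replicate 2. Of the 27 genes that fell 1, Eda2r, lies on the X chromosome and none on the Y. The share of all measured genes on these chromosomes was not counted. Within the replicate numbers 1 to 4 Eda2r differed by −4.85, −4.67, −4.02 and −4.20. On the p53−/− arrays Xist was high in numbers 1 and 2 and low in 3 and 4, which are also the array sets. The part of each in the Eda2r difference cannot be told apart. Of the 50 measured genes nearest to Trp53 in the gene table, 25 on each side, none passed and none had all arrays apart. Over all genes 0.146% were called lower, and 0.263% had all arrays below and 0.135% above WT. None among 50 is near these shares and says little about the neighbours. Their median was 0.03, with a range from −0.54 to 0.45. Among marker lists of other cell types none held a gene that passed, where 0.146% of all genes were called lower. Summed levels of the 11 skeletal muscle markers ran from 373 to 1694 on the WT and from 390 to 699 on the p53−/− arrays on a linear scale, and those of the 10 blood and macrophage markers from 391 to 3199 and from 259 to 2597. S100a4 and Sox2, which differed by −1.08 and 1.06 without passing, were the only markers beyond 1 on either side apart from Dcn at −1.15, and their part in the differences above was not tested.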

How the data were processed

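The authors hybridized biotinylated cRNA to Affymetrix MG-430 PM array strips and normalized the arrays with RMA in Partek 6.5, per the labels, and the deposited values are log2 intensities between 2.00 and 13.5 on the arrays used. Of 45141 probe sets 104 controls were left out. Of the 45037 tested, 28898 had one gene symbol, for 17097 genes in all. How precise a mean is depends on the number of arrays, since arrays have no read depth.

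Averages of both arrays per genotype and number were fitted with limma 3.58.1 in R 4.3.3 (lmFit, eBayes) without a block. Deviations of the WT and p53−/− averages of one number correlated at 0.41 to 0.60. Only for number 2 did the WT average correlate best with the p53−/− average of its own number. Whether the numbers pair the genotypes was therefore not shown. The block was an alternative. Others were fits to single arrays or more groups, each array set, filters, thresholds, a quantile normalization, other pairings of labels and leaving out averages. The fit was tested on simulated data.

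Named genes are the 15 largest falls and rises with an adjusted p under 0.05 whose arrays did not overlap, called p53 targets, up to 4 called members of other lists, leading markers and called neighbours of Trp53. Members and lists were chosen with earlier results of these data known.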

Additional observations from a re-analysis of the deposited data

Results flagged for a closer look

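Among 33 genes and probe sets, 66 groups of 4 averages were checked for one average far from the rest, and 3 were found, about what chance gives at 1 in 20. Zmat3 read 6.44 in p53−/− replicate 2 against 6.86 to 6.95 in the others, and Dcxr read 5.51 in p53−/− replicate 1 against 6.12 to 6.24. A930007A09Rik read 3.61 in p53−/− replicate 2 against 3.39 to 3.40. Each of these averages lay below the WT average of its number.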

How the results depend on the processing

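The 27 genes kept their negative sign in all alternatives that tested them, except that between the arrays labelled untreated Pitpnc1 was 0.20 and Blcap 0.31, where an unnamed probe set that rose was −0.56. The count of 44 probe sets became 332 (16 single arrays), 127 (single arrays with number as random effect), 470 (28 arrays), 74 (3 genotypes), 136 (array set as block), 0 and 88 (replicates 1 and 2, or 3 and 4, alone), 29 (1 probe set per gene), 392 (study thresholds), 312 and 17 (the methods' t-test at those thresholds and after Benjamini-Hochberg), 1197 and 1912 (arrays labelled untreated or H2O2) and 25 (p53−/− labelled H2O2 against untreated WT). For the 12 p53 targets these were 31, 24, 35, 16, 26, 0, 18, 14, 39, 36, 6, 19, 32 and 8, and for the 0 G2 and mitosis genes 10 (16 single arrays), 3 (random effect), 7 (28 arrays), 5 (array set), 9 and 8 (study thresholds, also by t-test), 16 (arrays labelled H2O2) and 0 otherwise. The replicate block gave 62 probe sets, 19 targets and no G2 and mitosis gene, with 7 probe sets lost and 25 gained. Leaving out 1 average gave 21 to 38 probe sets, 7 to 11 targets and 0 G2 and mitosis genes. Against p66−/− the count of 32 became 724 (28 arrays), 245 (replicate block) and 11 to 73 on leaving out 1 average, the highest without p66−/− replicate 2. The cause of these changes was not tested.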
